A study of Mus musculus with 8 samples.

Results

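The complement genes examined here are 9 members of 54146 genes quantified in astrocyte RNA-seq. They were chosen by gene symbol and comprise C3, C4b, C1ra, C1s1, Cfb, C2, Serping1, Cd55 and Cd59a. All 9 were quantified in all 8 libraries. Primary cortical glia of newborn C57BL/6 mice were infected with a lentivirus encoding either a non-silencing control shRNA (control KD) or an shRNA against Gstm1 (GSTM1 KD), which encodes a mu-class glutathione S-transferase. Each knockdown was analysed unstimulated (basal level) and after 6 h of TNF-α at 50 ng/ml, which gave 4 groups of 2 libraries. All groups share the virus infection, the puromycin selection and the enrichment of astrocytes by shaking and by depletion of CD11b-positive cells. The infection preceded the enrichment, so every cell type of the mixed glia was exposed to the virus, and cortices of more than 1 pup were pooled in a flask. The study calls the 2 libraries of a group biological replicates without saying whether they came from separate cultures, so the p-values measure the spread between these libraries, which may be technical.

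Complement is a cascade of blood and tissue proteins that marks surfaces and recruits phagocytes. In the classical pathway the C1 complex, which holds the proteases C1r and C1s, cleaves C4 and C2 to form an enzyme that cleaves C3. Factor B, the product of Cfb, replaces C2 in the alternative pathway, which amplifies C3 cleavage. Serping1 encodes the C1 inhibitor, Cd55 a membrane protein that speeds the decay of the C3-cleaving enzymes, and Cd59a a membrane protein that blocks the terminal pore. In the brain, astrocytes are a known local source of C3 and C4, C1q comes mainly from microglia, and C1q and C3 are known for tagging synapses that microglia remove.

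Library totals ranged from 17349676 to 34434633 expected counts, and 19434 to 21610 genes had a count. Levels are given as TMM-scaled CPM (the share of a library's counts, scaled so that libraries can be set side by side), which compares a gene between libraries, or as TPM (the share of transcripts, which accounts for gene length), which compares genes. A count of 3 corresponded to 0.0848 to 0.180 CPM, and a value at or below that was taken as the limit of detection. Gstm1 stood at 230.4 and 376.9 CPM in the unstimulated control KD libraries and at 29.0 and 31.3 CPM in those of GSTM1 KD. With TNF-α it stood at 208.8 and 390.4 CPM and at 24.3 and 23.3 CPM. Its log2 fold change between knockdowns was -3.33 (SE 0.26) unstimulated and -3.68 (SE 0.31) with TNF-α. For every level here, fewer cells of a type and less RNA per cell cannot be told apart.

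Sequence upstream of a gene's start is of interest where a gene responds to stimulation, and C3 was the member with a call after TNF-α. RefSeq promoter windows (GRCm38.p6) matched 5 of the 9 members, C3, C1ra, C1s1, Cd55 and Cd59a. The 250 bases before the C3 start lie at chr17:57228137-57228386 on the minus strand, directly upstream of the gene body, and are printed 5′ to 3′ with the match to a C/EBP motif in capitals.

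C3: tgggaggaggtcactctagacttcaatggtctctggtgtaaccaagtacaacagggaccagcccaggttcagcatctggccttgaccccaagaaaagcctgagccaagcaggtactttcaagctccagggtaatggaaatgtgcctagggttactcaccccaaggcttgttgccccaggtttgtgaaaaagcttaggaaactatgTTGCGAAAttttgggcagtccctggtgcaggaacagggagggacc

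The C/EBP motif searched was TTGCNNAA on either strand, and its match in C3 begins 45 bases before the start. This motif was found in 9.56% of the 32851 RefSeq windows of the same length. An NF-κB motif (7.25% of windows) and the AP-1 motif TGANTCA (6.75% of windows) had no match in the 250 bases of C3. Among the other members with a window, C1s1 held 1 C/EBP match in 1 of its windows, and no other match to the 3 motifs was found. A match is a run of letters and was not tested for binding.

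C3 was the most abundant complement transcript among the members in each group. Its mean was 20.02 ± 2.57 TPM in unstimulated control KD and 36.8 ± 2.5 TPM in unstimulated GSTM1 KD, and 90.8 ± 63.7 and 168 ± 34.0 TPM with TNF-α (SD, n = 2). The range of its 2 libraries lay above that of the next member in every group. Next in unstimulated control KD came Serping1 (10.1 ± 0.028 TPM) and Cd59a (9.93 ± 2.87 TPM), whose ranges overlapped. Below them came C1ra (6.27 ± 2.25 TPM), C1s1 (4.43 ± 0.35 TPM) and C4b (3.85 ± 2.75 TPM), where the ranges of neighbours overlapped. Cd55 (1.39 ± 0.014 TPM), C2 (1.07 ± 0.87 TPM) and Cfb (0.48 ± 0.12 TPM) were lowest, and each overlapped its neighbour in this order. In unstimulated GSTM1 KD, C1ra stood second at 13.1 ± 0.71 TPM, and it did not differ beyond the spread from Cd59a, nor Cd59a from C4b, nor C4b from Serping1. In stimulated control KD the ranges of neighbours overlapped from Serping1 down to C4b. After TNF-α in GSTM1 KD, C1ra (21.2 ± 2.53 TPM) lay above Cd59a (12.7 ± 0.53 TPM) without overlap. Over all 8 libraries the order by mean TPM was C3, C1ra, Cd59a, Serping1, C4b, C1s1, Cd55, C2 and Cfb. This order pools groups whose means differ. C1ra ranked 4 in unstimulated control KD, 3 in stimulated control KD and 2 in both GSTM1 KD groups.

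**Figure D1:**
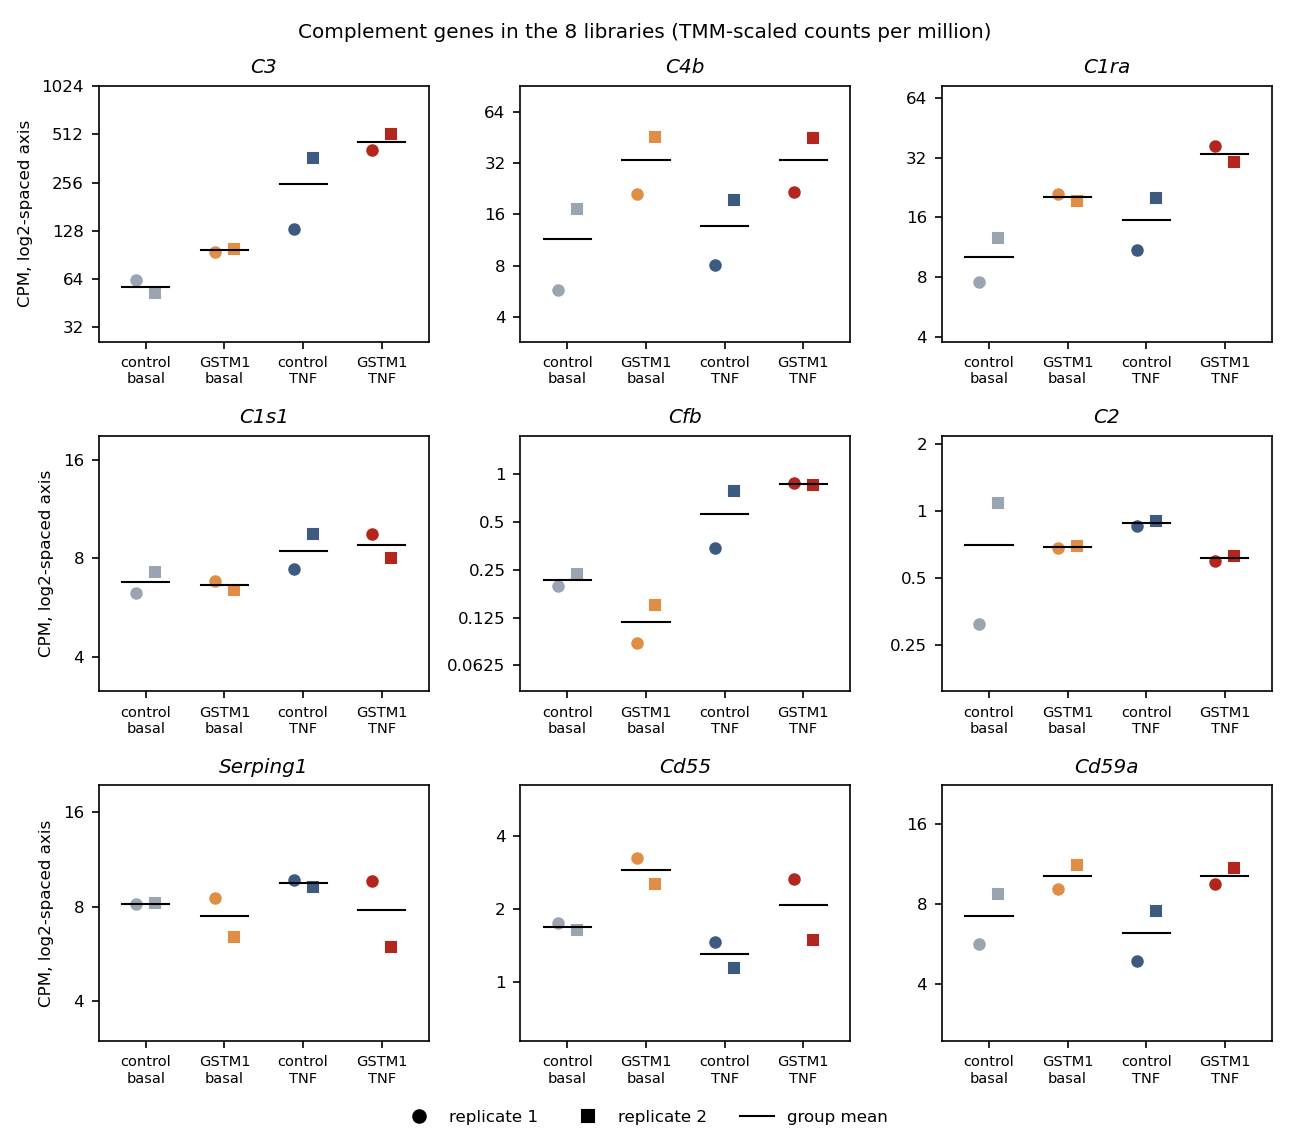
TMM-scaled CPM of the 9 complement genes in each library, on log2-spaced axes that differ between panels. Circles are replicate 1, squares replicate 2 and lines the mean of 2 libraries. C3 spans 51.9 to 513.8 CPM, and C4b, C1ra and Cd59a are lowest in replicate 1 of control KD.

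C3 rose with GSTM1 KD in unstimulated astrocytes, and no other member passed the main edgeR test in this comparison. The comparison asks how complement transcripts differ between the Gstm1 shRNA and the control shRNA without TNF-α. The study could not fully exclude that the Gstm1 shRNA also affects other glutathione S-transferases. The quasi-likelihood test of edgeR (Benjamini-Hochberg adjusted p, threshold 0.05) called 1 of 8 tested members, higher in GSTM1 KD, against 10.2% of the 14899 genes tested in either direction. Cfb did not reach the filter on low counts and was not tested. At an unadjusted p under 0.05 the members were 4 of 8, C3, C1ra, Cd55 and C4b, against 31.6% of all genes. DESeq2, the tool of the study, gave an adjusted p to 7 members and called 2, C3 and C1ra, against 18.2% of the 13695 genes it tested. The median log2 fold change was 0.63 over the 8 members and -0.0020 over all genes tested. With the replicate number as a block edgeR called C3, C4b and C1ra, and also more of all genes, as given in the last section.

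With TNF-α present, no member passed the comparison of the 2 knockdowns in the main edgeR fit. With the replicate number as a block edgeR called C3, C4b, C1ra and Cd59a, and also more of all genes, as given in the last section. edgeR called 0 of 9 members, against 16.2% of the 14593 genes tested. At an unadjusted p under 0.05 the members were 3 of 9, C1ra, C4b and Cd59a, against 36.2% of all genes. DESeq2 called 1 of 8 members, C1ra, against 20.4% of the genes it tested. The median log2 fold change was 0.65 over the 9 members and -0.011 over all genes tested.

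TNF-α raised C3 in GSTM1 KD astrocytes, and in control KD its log2 fold change was 2.12 against 2.26 without passing the threshold (edgeR adjusted p = 0.0517). In control KD edgeR called 0 of 9 members, against 2.63% of the 15332 genes tested, and 2 of 9 (C3 and Cfb) had an unadjusted p under 0.05, against 12.5% of all genes. DESeq2 called 1 of 9 there, C3, against 4.42%. In GSTM1 KD edgeR called 1 of 9, C3, against 2.65%, and 2 of 9 (C3 and Cfb) had an unadjusted p under 0.05, against 10.9%. DESeq2 again called C3 alone, against 3.77%. In both knockdowns Cfb passed the filter on low counts through the stimulated libraries, where it was higher. Its unadjusted p is therefore no support, and without Cfb only C3 had an unadjusted p under 0.05. The 2 responses were fitted with all 8 libraries in 1 model and share its estimate of spread.

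**Figure D2:**
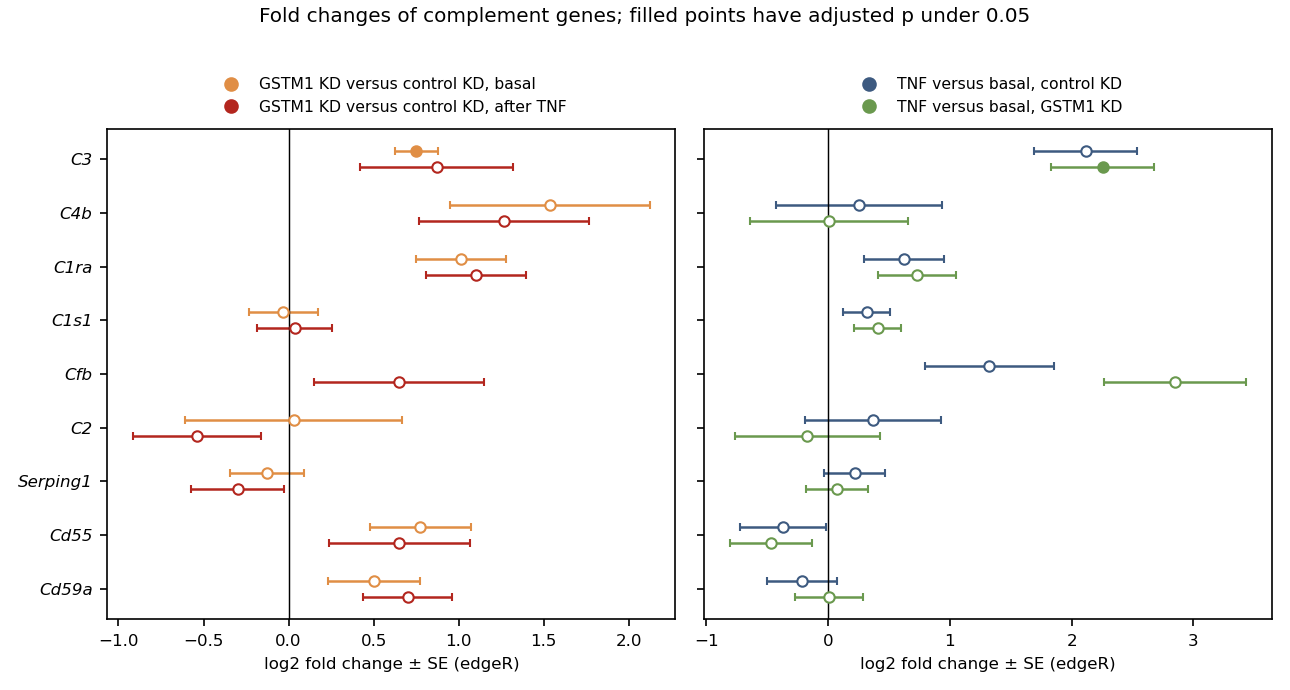
Log2 fold changes with their standard errors from edgeR, for GSTM1 KD against control KD (left) and for TNF-α against the basal level (right). Filled points passed an adjusted p of 0.05, which holds for C3 at the basal level and for C3 after TNF-α in GSTM1 KD. Cfb has no point at the basal level because it was not tested there.

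C3 encodes the central component on which all complement pathways converge (chr17:57203970-57228136, minus strand, GRCm38). C3 stood at 62.7 and 51.9 CPM in the unstimulated control KD libraries and at 94.8 and 98.4 CPM in those of GSTM1 KD. With TNF-α, C3 stood at 131.8 and 366.2 CPM in control KD libraries and at 409.5 and 513.8 CPM in those of GSTM1 KD. The groups did not overlap in any of the 4 comparisons, and the 2 stimulated control KD libraries differed from each other 2.78-fold, more than any other pair of C3 replicates.

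Unstimulated, C3 was 1.68-fold higher in GSTM1 KD (log2 fold change 0.75, SE 0.13, edgeR adjusted p = 0.0282). DESeq2 gave 0.74 on the log2 scale with an adjusted p of 0.00049. With either GSTM1 KD basal library left out the edgeR call was lost (adjusted p = 0.141 without replicate 1 and 0.226 without replicate 2), as it was when all 8 libraries entered the fit (0.236), while the log2 fold change over these fits and the other alternatives ranged from 0.61 to 0.89. After TNF-α the log2 fold change between knockdowns was 0.87 (SE 0.45, edgeR adjusted p = 0.223). It was 0.31 without replicate 1 of the stimulated control KD and 1.78 without replicate 2 of that group, and 2 of the 9 alternatives that kept every library passed.

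The response of C3 to TNF-α was 4.34-fold in control KD (log2 fold change 2.12, SE 0.42, edgeR adjusted p = 0.0517) and 4.78-fold in GSTM1 KD (2.26, SE 0.42, edgeR adjusted p = 0.0416). DESeq2 called both, with adjusted p-values of 3.6e-07 and 4.5e-08. In control KD the log2 value was 2.67 without replicate 1 of the stimulated group and 1.22 without replicate 2, each past the threshold. Without any 1 of the other 6 libraries it stayed short of the threshold (log2 values from 1.99 to 2.26, edgeR adjusted p from 0.0987 to 0.216), and 6 of 10 alternatives that kept every group passed it. In GSTM1 KD the call was lost without any 1 of its 4 libraries (edgeR adjusted p from 0.147 to 0.310), without replicate 1 of the basal control KD (0.0513) and with effective lengths as offsets (0.0530), with a log2 value between 2.09 and 2.41 throughout.

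C1ra and C1s1 encode the proteases of the C1 complex and are neighbours on chromosome 6 (C1ra chr6:124512405-124523443, plus strand; C1s1 chr6:124530345-124542359, minus strand). C1ra stood at 7.55 and 12.5 CPM in the unstimulated control KD libraries and at 20.9 and 19.4 CPM in those of GSTM1 KD. With TNF-α, C1ra stood at 10.9 and 20.1 CPM in control KD libraries and at 36.7 and 30.3 CPM in those of GSTM1 KD. The knockdown groups did not overlap in either state, and the 2 stimulated GSTM1 KD libraries held the highest levels.

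The log2 fold change of C1ra between knockdowns was 1.01 (SE 0.26, edgeR adjusted p = 0.0668) unstimulated and 1.10 (SE 0.29, edgeR adjusted p = 0.0581) after TNF-α. Neither passed in edgeR, while DESeq2 gave adjusted p-values of 0.0068 and 0.0029. Over the 9 alternatives that kept every library, the adjusted p ranged from 5.8e-05 to 0.0719 unstimulated, with 3 past the threshold, and from 1.6e-08 to 0.0582 after TNF-α, with 5 past it. The value depended on which control KD library was kept, at 0.68 without replicate 1 and 1.41 without replicate 2 unstimulated, and at 0.72 and 1.60 after TNF-α. A fit with 1 library in a group takes its spread from the other group alone and assumes that the lone library varies likewise. Without a control KD library such fits called 2185 to 5256 of all genes, and without a GSTM1 KD library 0 to 94, so a pass or a loss in them is no support for or against a single gene here or in the paragraphs on the other members. TNF-α gave log2 values of 0.62 (SE 0.33) in control KD and 0.73 (SE 0.32) in GSTM1 KD, with edgeR adjusted p-values of 0.553 and 0.473. In control KD the value ranged from 0.14 without replicate 2 of the stimulated group to 1.03 without replicate 2 of the unstimulated group. In GSTM1 KD 3 of 10 alternatives passed (no filter, only the 4 libraries compared, and both control KD replicate 1 libraries left out), with adjusted p-values from 0.0022 to 0.483 over the 10.

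C1s1 stood at 6.27 and 7.27 CPM in the unstimulated control KD libraries and at 6.82 and 6.41 CPM in those of GSTM1 KD. With TNF-α, C1s1 stood at 7.40 and 9.50 CPM in control KD libraries and at 9.51 and 8.04 CPM in those of GSTM1 KD. The log2 fold change between knockdowns was -0.03 (SE 0.20) unstimulated and 0.04 (SE 0.22) after TNF-α, and the groups overlapped in both states. TNF-α gave 0.32 (SE 0.19) in control KD and 0.41 (SE 0.19) in GSTM1 KD, with edgeR adjusted p-values of 0.645 and 0.546. On the TPM scale the unstimulated groups did not overlap, with 4.18 and 4.68 TPM for control KD against 6.14 and 5.70 TPM for GSTM1 KD. The effective length estimated for C1s1 was 2568 and 2670 bases in these control KD libraries and 1991 and 2003 bases in GSTM1 KD, and with these lengths as offsets the log2 fold change was 0.37 (edgeR adjusted p = 0.310).

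C4b encodes the complement component cleaved by C1s (chr17:34728380-34743882, minus strand), and its replicates differed widely in every group. C4b stood at 5.74 and 17.3 CPM in the unstimulated control KD libraries and at 21.0 and 45.4 CPM in those of GSTM1 KD. With TNF-α, C4b stood at 8.05 and 19.5 CPM in control KD libraries and at 21.8 and 44.9 CPM in those of GSTM1 KD. Replicate 2 was 2.06 to 3.02 times replicate 1 in every group. The knockdown groups did not overlap in either state, since the higher control KD library lay just below the lower GSTM1 KD library. The log2 fold change between knockdowns was 1.54 (SE 0.59, edgeR adjusted p = 0.143) unstimulated and 1.26 (SE 0.50, edgeR adjusted p = 0.133) after TNF-α. DESeq2 gave adjusted p-values of 0.255 and 0.266, and over the 9 alternatives that kept every library 2 passed in each state. Without replicate 2 of control KD the values were 2.52 and 2.02, and without replicate 1 they were 0.93 and 0.75. TNF-α gave log2 values of 0.26 (SE 0.68) in control KD and 0.0067 (SE 0.65) in GSTM1 KD, and the stimulated and basal libraries overlapped in both knockdowns.

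Gfap, the intermediate filament protein that marks astrocytes, was measured beside C4b and Cd59a because the 3 genes order the libraries alike at both ends. Gfap stood at 995.0 and 3078 CPM in the unstimulated control KD libraries and at 3119 and 5627 CPM in those of GSTM1 KD. With TNF-α, Gfap stood at 920.2 and 2893 CPM in control KD libraries and at 2983 and 5209 CPM in those of GSTM1 KD. The log2 fold change of Gfap between knockdowns was 1.10 (SE 0.56, edgeR adjusted p = 0.234) unstimulated and 1.08 (SE 0.55, edgeR adjusted p = 0.218) after TNF-α. For all 10 astrocyte markers, the summed level was 1793 to 4129 TPM in unstimulated control KD and 4131 to 6236 TPM in unstimulated GSTM1 KD. With TNF-α the ranges were 1772 to 3942 TPM and 3913 to 5945 TPM, and they overlapped. Most of the sum was Gfap in GSTM1 KD, where it made up 2333 and 4184 TPM unstimulated. The median log2 fold change of the 10 markers was 0.51 unstimulated and 0.28 after TNF-α, and 7 and 6 of them had a fold above 1. Aldh1l1, Aldoc, Slc1a2 and Gja1 were higher in TPM in both GSTM1 KD libraries than in both control KD libraries in either state, and none of them was called by edgeR or DESeq2. The share of all genes that separate in this way was not counted, so this does not set these markers apart from other genes. At Aldh1l1 the unstimulated levels were 54.4 and 154.9 TPM in control KD against 203 and 254 TPM in GSTM1 KD. DESeq2 alone called Glul higher in both states. S100b fell in GSTM1 KD in both states, Sox9 was at 116 and 181 TPM in control KD against 108 and 111 TPM in GSTM1 KD unstimulated, and Aqp4 and Slc1a3 overlapped between the knockdowns. The part of these markers in the values of C3, C4b, C1ra and Cd59a was not tested.

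**Figure D3:**
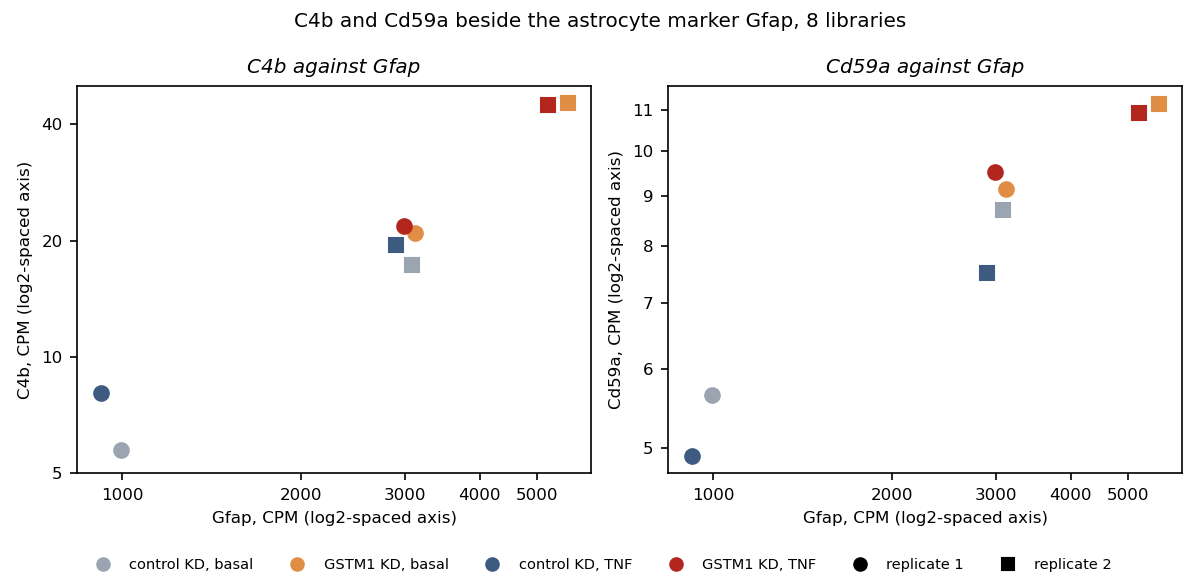
Levels of C4b (left) and Cd59a (right) against Gfap in the 8 libraries, in TMM-scaled CPM on log2-spaced axes, colored by group with circles for replicate 1 and squares for replicate 2. The 2 libraries of control KD replicate 1 are lowest and those of GSTM1 KD replicate 2 highest in all 3 genes, and the other 4 libraries lie between 2893 and 3119 CPM of Gfap.

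C2 and Cfb encode the proteases that form the C3-cleaving enzymes of the classical and the alternative pathway, and both were rare. C2 (chr17:34862604-34898265, minus strand) stood at 0.31 and 1.09 CPM in the unstimulated control KD libraries and at 0.69 and 0.70 CPM in those of GSTM1 KD, from 11 to 28 counts over the 8 libraries. With TNF-α, C2 stood at 0.86 and 0.90 CPM in control KD libraries and at 0.60 and 0.63 CPM in those of GSTM1 KD. The 2 basal control KD libraries of C2 differed 3.52-fold and enclosed both GSTM1 KD libraries. No comparison of C2 passed, and its log2 fold change between knockdowns was 0.03 (SE 0.64) unstimulated and -0.54 (SE 0.38, edgeR adjusted p = 0.351) after TNF-α.

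Cfb (chr17:34856374-34862518, minus strand) yielded 7 and 6 counts from unstimulated control KD and 2 and 3 counts from unstimulated GSTM1 KD, or 0.20 and 0.23 CPM against 0.086 and 0.15 CPM. With TNF-α it yielded 8 and 13 counts from control KD and 19 and 15 from GSTM1 KD, or 0.34 and 0.78 CPM against 0.88 and 0.86 CPM. Both basal GSTM1 KD libraries lay at the limit of detection. From the summed counts, the ratio of stimulated to basal was 7.53 in GSTM1 KD (95% exact binomial interval 2.93 to 24.7, 34 against 5 counts) and 2.47 in control KD (1.18 to 5.37, 21 against 13 counts), where the intervals cover counting error only. The 2 intervals overlap. The fitted log2 fold change was 2.85 (SE 0.58, edgeR adjusted p = 0.0581) in GSTM1 KD and 1.32 (SE 0.53, edgeR adjusted p = 0.355) in control KD. In control KD this value was 1.84 without replicate 1 of the stimulated group, 0.69 without replicate 2 and 0.58 with effective lengths as offsets. Cfb passed the filter on low counts in these fits through the stimulated libraries, where it was higher. These p-values, and the place of Cfb in the counts of members above, are therefore no support for a response. In GSTM1 KD the adjusted p of Cfb over the alternatives that kept every group ranged from 0.0047 to 0.256, with 4 of 9 past the threshold. DESeq2 gave 0.109 in GSTM1 KD and 0.867 in control KD.

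Serping1 encodes the C1 inhibitor (chr2:84765387-84775444, minus strand) and differed little between groups. Serping1 stood at 8.14 and 8.21 CPM in the unstimulated control KD libraries and at 8.54 and 6.41 CPM in those of GSTM1 KD. With TNF-α, Serping1 stood at 9.77 and 9.26 CPM in control KD libraries and at 9.69 and 5.97 CPM in those of GSTM1 KD. Replicate 2 of GSTM1 KD was the lowest library in both states. The log2 fold change between knockdowns was -0.13 (SE 0.22) unstimulated and -0.30 (SE 0.27) after TNF-α, and that of TNF-α was 0.22 (SE 0.25) in control KD and 0.07 (SE 0.25) in GSTM1 KD. None of these passed, and the lowest edgeR adjusted p of the 4 was 0.471.

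Cd55 and Cd59a, the membrane regulators among the members, did not pass in the main edgeR fit or in DESeq2 in any comparison. Cd55 (chr1:130439027-130462744, minus strand) stood at 1.75 and 1.64 CPM in the unstimulated control KD libraries and at 3.26 and 2.55 CPM in those of GSTM1 KD. With TNF-α, Cd55 stood at 1.46 and 1.14 CPM in control KD libraries and at 2.68 and 1.49 CPM in those of GSTM1 KD. Its log2 fold change between knockdowns was 0.78 (SE 0.30, edgeR adjusted p = 0.146) unstimulated and 0.65 (SE 0.41, edgeR adjusted p = 0.307) after TNF-α. The knockdown groups did not overlap, but after TNF-α the lower GSTM1 KD library rested on 26 counts and lay close to the higher control KD library. Leaving out 1 library moved the value after TNF-α between 0.17 and 1.00. TNF-α gave log2 values of -0.37 (SE 0.35) for Cd55 in control KD and -0.47 (SE 0.34) in GSTM1 KD, and it was the member with the lowest of these values in both knockdowns.

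Cd59a (chr2:104095801-104115354, plus strand) stood at 5.65 and 8.72 CPM in the unstimulated control KD libraries and at 9.14 and 11.2 CPM in those of GSTM1 KD. With TNF-α, Cd59a stood at 4.91 and 7.52 CPM in control KD libraries and at 9.51 and 10.9 CPM in those of GSTM1 KD. The log2 fold change between knockdowns was 0.50 (SE 0.27, edgeR adjusted p = 0.256) unstimulated and 0.70 (SE 0.26, edgeR adjusted p = 0.119) after TNF-α. Without replicate 1 of control KD these values were 0.22 and 0.42, and without replicate 2 they were 0.83 and 1.03. Of the 9 alternatives that kept every library, 0 passed unstimulated and 2 after TNF-α. TNF-α gave -0.21 (SE 0.29) in control KD and 0.0085 (SE 0.28) in GSTM1 KD, where both stimulated libraries lay within the range of the unstimulated ones.

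The last comparison asks whether the response to TNF-α differs between GSTM1 KD and control KD, and it found no member that did so at this replication. edgeR called 0 of 9 members, against 0% of the 15332 genes tested, and 0 of 9 had an unadjusted p under 0.05, against 1.92% of all genes. DESeq2 called none of the members either, against 0.107% of the genes it tested. The difference for C3 was 0.14 on the log2 scale with an SE of 0.57, so the fit leaves room for a difference in either direction. For C1ra it was 0.11 (SE 0.46), for C4b -0.25 (SE 0.94) and for Cfb 1.52 (SE 0.82), the last with the highest absolute value among the members. The value of C3 ranged from -0.41 to 1.04 when 1 library was left out. The knockdown and TNF-α comparisons share libraries in pairs, so their values are not independent of each other.

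Several members have close copies or overlapping genes in the genome, which bears on how far their counts are their own. Of the 100-base words in the longest annotated transcript, 36.0% of those of C1ra also occur in C1rb or Gm18840, 16.5% of those of C4b in C4a, 7.90% of those of C1s1 in C1s2, 5.5% of those of Cd55 in Cd55b and 0.293% of those of Cd59a in Cd59b. The paralogs themselves were rare, with 0 to 3 counts for C1rb, 0 to 4 for C1s2, 7 to 21 for C4a, 3 to 11 for Cd59b and 0 for Cd55b in every library. C3 and Serping1 shared no such word with another gene. Cfb and C2 lie next to each other and share 81.0% and 53.2% of their words with Gm20547, a gene annotated over both on the same strand. Gm20547 had 0 counts in every library, and the division of reads among the 3 genes is an estimate. C2 also overlaps Zbtb12 on the opposite strand, which had up to 416 counts. The library kit keeps strand, but whether the quantification used it is not given in the sources used here, so reads of C2 and Zbtb12 may not have been told apart. The effective length estimated for Cfb ranged from 718 to 2504 bases between libraries and that of C2 from 757 to 2413 bases, so their TPM vary with it as well as with their counts.

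The other genes of the pathway were followed through 5 lists of 52 genes. Of the 22 tested unstimulated, edgeR called 3 higher in GSTM1 KD and none lower, against 10.2% of all genes in either direction. Of the 20 tested after TNF-α, 2 were higher and none lower, against 16.2%. Csmd3 among the 3 and Cd46 among the 2 passed the filter on low counts only through GSTM1 KD, where they were higher. Their calls are no support, which leaves Clu and Susd4 unstimulated and Clu after TNF-α. In the 23 tested for each TNF-α response and for the difference, edgeR called none. At an unadjusted p under 0.05 there were 1 in control KD, 0 in GSTM1 KD and 2 for the difference, against 12.5%, 10.9% and 1.92% of all genes, and DESeq2 called none in any of these 3. By list, edgeR called 0 of 7 recognition and initiation genes, 0 of 4 alternative pathway and terminal genes, 1 of 3 fluid-phase regulators, 2 of 6 membrane regulators and 0 of 2 receptors in the unstimulated comparison. DESeq2 called 5 of 17 there, Clu, Hc and Susd4 as higher and Cr1l and C3ar1 as lower, and 3 of 16 after TNF-α, Clu, Hc and Susd4, against 18.2% and 20.4% of all genes. C3ar1 reached the filter on low counts through control KD, where it was higher, so its call is no support. The median log2 fold change of the tested genes was 0.05 unstimulated and 0.43 after TNF-α.

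Clu encodes clusterin, a secreted regulator that keeps the terminal complex from inserting into membranes, and had the highest mean TPM of these genes, at 395 to 1393 TPM over the 8 libraries against 194 to 287 TPM for C1qbp, the next. Clu stood at 351.3 and 449.8 CPM in the unstimulated control KD libraries and at 849.9 and 1190.3 CPM in those of GSTM1 KD. With TNF-α, Clu stood at 348.0 and 500.6 CPM in control KD libraries and at 840.2 and 1097 CPM in those of GSTM1 KD. Clu rose in GSTM1 KD by 1.35 on the log2 scale (SE 0.22, edgeR adjusted p = 0.0263) unstimulated and by 1.17 (SE 0.22, edgeR adjusted p = 0.0277) after TNF-α. The call was kept in all 9 alternatives that kept every library in each state, and was lost when either GSTM1 KD library of that state was left out (0.0855 and 0.168 unstimulated, 0.0806 and 0.159 after TNF-α).

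The membrane regulators called by edgeR were Csmd3 and Susd4 in the unstimulated comparison and Cd46 after TNF-α. DESeq2 called Susd4 higher in both states and Cr1l lower unstimulated. Susd4 encodes a membrane protein with sushi domains, the repeats typical of complement regulators, and rose by 1.63 (SE 0.31, edgeR adjusted p = 0.0362), from 1.75 and 2.97 CPM to 7.21 and 7.31 CPM. Csmd3 encodes a large protein with sushi domains and yielded 5 and 2 counts from control KD and 19 and 14 from GSTM1 KD, a ratio of 6.64 (95% exact binomial interval for counting error only 2.89 to 17.8, edgeR adjusted p = 0.0348). Csmd3 and Cd46 passed the filter on low counts only through GSTM1 KD, where they were higher. Their p-values thus depend on the difference they test and are no support for it. For Csmd3 DESeq2 gave no adjusted p. Cd46 encodes a cofactor for C3b cleavage and had a log2 fold change of 1.62 (SE 0.39, edgeR adjusted p = 0.0469) after TNF-α. It yielded 15 and 7 counts from control KD and 38 and 29 from GSTM1 KD. Each of these 3 calls was lost without either GSTM1 KD library of its state, that of Csmd3 also without replicate 1 of control KD (0.0530), that of Cd46 also without either control KD library and in DESeq2 (0.103), and those of Csmd3 and Cd46 also with effective lengths as offsets (0.0665 and 0.0855).

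Hc, which encodes C5, the component cleaved after C3, stood at 1.36 and 3.32 CPM in the unstimulated control KD libraries and at 6.22 and 8.66 CPM in those of GSTM1 KD. With TNF-α, Hc stood at 0.82 and 2.89 CPM in control KD libraries and at 6.83 and 8.38 CPM in those of GSTM1 KD. Its log2 fold change was 1.69 (SE 0.46, edgeR adjusted p = 0.0728) unstimulated and 2.06 (SE 0.55, edgeR adjusted p = 0.0584) after TNF-α, and DESeq2 called it in both states. Cr1l, which encodes the rodent membrane regulator Crry, stood at 46.4 and 46.2 CPM in the unstimulated control KD libraries and at 34.5 and 31.1 CPM in those of GSTM1 KD. Its log2 fold change was -0.50 (SE 0.11, edgeR adjusted p = 0.0519) unstimulated and -0.40 (SE 0.13, edgeR adjusted p = 0.0900) after TNF-α. Hc and Cr1l were chosen for naming after their values were seen. Of the genes of the terminal pore, C6, C7, C8a, C8b and C9 had 0 counts in every library, and C8g had 6 to 34.

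**Figure D4:**
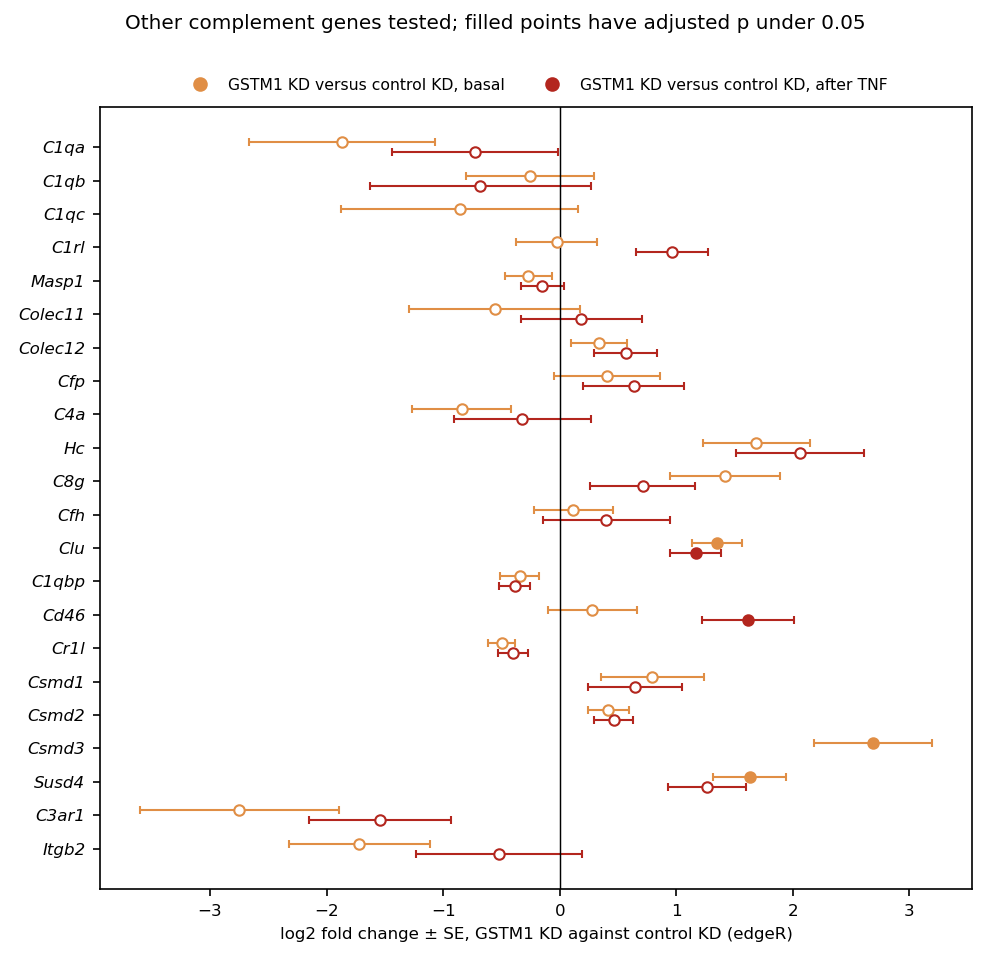
Log2 fold changes with their standard errors (edgeR) of the other complement genes tested between GSTM1 KD and control KD, at the basal level (orange) and after TNF-α (red). Filled points passed an adjusted p of 0.05, which holds for Clu in both states, for Csmd3 and Susd4 at the basal level and for Cd46 after TNF-α.

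The C1q chains, which start the classical pathway and in the brain are made mainly by microglia, had few counts. C1qa yielded 78 and 15 counts from unstimulated control KD and 13 and 4 from unstimulated GSTM1 KD, and with TNF-α 48 and 9 from control KD and 24 and 9 from GSTM1 KD. C1qb ranged from 2 to 35 counts and C1qc from 3 to 68 over the 8 libraries. Replicate 1 held more counts of each chain than replicate 2 in every group. C3ar1, which encodes the C3a receptor of myeloid cells, had 121 and 22 counts in unstimulated control KD and 11 and 3 in unstimulated GSTM1 KD (log2 fold change -2.75, SE 0.85, edgeR adjusted p = 0.0946), and DESeq2 called it lower there (adjusted p = 0.0173). C3ar1 reached the filter on low counts through control KD, where it was higher and where most of its counts came from replicate 1. These p-values are therefore no support for a difference. No comparison of a C1q chain passed the test, and C1qc did not reach the filter between knockdowns after TNF-α.

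Markers of other cells were measured beside these values. Of 12 microglia and macrophage markers 8 to 12 were above 0 in a library. Among them Cd68 was at 3.99 to 7.75 TPM over the 8 libraries. Cx3cr1, P2ry12 and Aif1 were at most at 0.19, 0.47 and 0.31 TPM, and Tmem119 and Csf1r at most at 1.14 and 1.07 TPM. Trem2 and Tyrobp were highest in replicate 1 of control KD, at 2.52 and 2.69 TPM unstimulated and 2.40 and 3.78 TPM after TNF-α, and these libraries also held the most counts of C1qa and C3ar1. Other markers of this list went another way. Tmem119 was at 0.41 TPM in replicate 1 and 1.14 TPM in replicate 2 of unstimulated control KD, and at 0.15 and 0.45 TPM after TNF-α. Cx3cr1 and P2ry12 were highest in GSTM1 KD libraries, and Cd68 in replicate 2 of stimulated control KD. The summed level of 9 fibroblast and meningeal markers was 116 to 179 TPM in unstimulated control KD and 95.5 to 124.5 TPM in unstimulated GSTM1 KD, and 101 to 152 TPM and 75.0 to 110.5 TPM with TNF-α. Among them both tools called Col1a2 lower in GSTM1 KD in both states and, after TNF-α, Foxc1 lower and Pdgfrb higher. For 9 oligodendrocyte lineage markers it was 533 to 596 against 423 to 441 TPM and 448 to 479 against 340.4 to 352 TPM, nearly all from Olig1 and Olig2, with Mog at most at 0.05 TPM. Both tools called Olig2 lower in GSTM1 KD in both states, and Olig1 was called lower after TNF-α by both and unstimulated by DESeq2 alone. For 6 endothelial markers it was 5.75 to 6.34 against 3.18 to 3.99 TPM and, with TNF-α, 6.79 to 8.27 against 4.1 to 5.4 TPM, with Cldn5 at 0 in every library, and DESeq2 called Flt1 and Cdh5 lower in unstimulated GSTM1 KD. Kdr lay the other way, at 0.18 and 0.37 TPM in unstimulated control KD against 0.54 and 0.93 TPM in GSTM1 KD, and was not called. For 6 neuron markers it was 189 to 200.04 against 229 to 237 TPM and, with TNF-α, 182 to 183 against 208 to 215 TPM, nearly all from Map2 and Tubb3, with Snap25 at most at 0.19 TPM. For 7 choroid plexus and ependyma markers it was 77.8 to 119.9 against 105.1 to 120.4 TPM and, with TNF-α, 67.0 to 79.5 against 94.7 to 105.9 TPM, mostly from Foxj1. Folr1 among them was called higher in GSTM1 KD in both states by both tools. Folr1 yielded 17 and 4 counts from unstimulated control KD and 36 and 55 from unstimulated GSTM1 KD. With TNF-α it yielded 3 and 7 counts from control KD and 35 and 36 from GSTM1 KD. It passed the filter on low counts only through GSTM1 KD, where it was higher, so its calls are no support. The part of these cells in the knockdown differences was not tested.

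As a description of their pattern over the 8 libraries, the genes most like each member were taken by Pearson's r of log2 CPM among 13376 genes. For C3 these were Apobec1 (r = 0.984), Tank (0.983) and Ccdc149 (0.983), and for C1ra Thoc2 (0.986), Ppp6r1 (0.984) and Fam122b (0.982). For C4b they were Vwa8, Ctsf and Pcdhgb5 (0.994 to 0.995), and for Cd59a Wdr44, Gpd2 and Fto (0.994 to 0.998). For C1s1 they were Zcchc6 (0.983), Rarres2 (0.957) and Psme1 (0.954), for Serping1 Pofut2, Melk and Mcm10 (0.963 to 0.974), and for Cd55 Crocc, Zmynd8 and Fggy (0.967 to 0.988). The 8 points share 2 knockdowns, 2 states and 2 replicate numbers, and so few points give high values to many genes. Cfb and C2 lay below the mean of 1 CPM required here.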

How the data were processed

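RNA-seq was performed on 8 libraries of primary mouse astrocytes, 2 in each of 4 groups. Reads were mapped by the authors to GRCm38 with STAR 2.5.4b and quantified with RSEM 1.3.0 (versions per the submitters' processing notes). The deposited values per gene and library are an expected count from RSEM, not normalized, the TPM that RSEM derived from it, and an effective length in bases. The annotation release is not given in the sources used here. The gene IDs of the members and of some other named genes matched, with their versions, the GENCODE annotation of GRCm38, from which coordinates were taken. The remaining gene IDs were not checked in this way.

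The members and gene lists were chosen with earlier results of these data known. Expected counts were rounded and tested across all genes with edgeR 4.0.16 (quasi-likelihood F-test, TMM, filterByExpr, Benjamini-Hochberg, threshold 0.05) in R 4.3.3. Comparisons between knockdowns used the 4 libraries compared, and the TNF-α responses and their difference all 8. DESeq2 1.42.0, the tool of the study, was an alternative. Scripts were tested on simulated data. CPM used 1 TMM scale over 8 libraries. Low counts limit precision, and a count of 3 served as the floor.

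The rule for named genes took the 9 members, other complement genes past the threshold or paralogous, the C1q chains, Gstm1, and the 3 genes most like each tested member (log2 CPM with a prior count of 2, mean of at least 1 CPM). Hc, Cr1l, C3ar1, C1qbp, C8g, Gfap and the single markers were named after their values were seen. Replicates of a group differed by 13.8 to 55.4 times the sampling variance over genes with at least 20 counts, so no group held 1 library deposited as both replicates. Libraries of different groups were not compared in this way. The alternatives were DESeq2, its size factors in edgeR, library size only, keeping every gene with a count, keeping genes with 10 or more counts throughout, a replicate block, effective lengths as offsets, edgeR's newer quasi-likelihood method, other libraries in the fit, each library left out in turn and, added after the data were seen, both control KD replicate 1 libraries left out. The level of 1 microglia marker, and the summed level of the list that holds it, are not reported here.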

Additional observations from a re-analysis of the deposited data

Results flagged for a closer look

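In CPM, Cfb was lower in both GSTM1 KD libraries than in both control KD libraries without stimulation and higher in both with TNF-α. Both unstimulated GSTM1 KD libraries, with 2 and 3 counts, lay at the limit of detection. In TPM the stimulated groups overlapped, at 0.23 and 1.5 TPM in control KD against 0.89 and 0.85 TPM in GSTM1 KD. The difference of its TNF-α responses was 1.52 on the log2 scale (SE 0.82, edgeR unadjusted p = 0.103, adjusted p = 1.00), from 2 to 19 counts per library, and it did not pass the test. The difference ranged from 1.01 without replicate 1 of stimulated control KD to 2.16 without replicate 2, and it was 1.13 without both replicate 1 libraries of control KD and 2.29 with effective lengths as offsets.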

How the results depend on the processing

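Of the 691 member values recomputed under an alternative, 584 kept their direction and their side of the threshold, 42 kept the direction and newly passed, 9 kept the direction and no longer passed, and 56 changed sign. The cause of these changes was not tested.

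The number of members called varied with the processing. Unstimulated, GSTM1 KD against control KD gave 1, and 2 with DESeq2, 3 with no filter and 0 with all 8 libraries in the fit. After TNF-α it gave 0, and 1 with DESeq2, 1 with library size only, 4 with no filter and 1 with all 8 libraries. For TNF-α in control KD it was 0, and 1 with DESeq2, 1 with library size only, 2 with no filter, 1 with the newer quasi-likelihood method and 1 with both control KD replicate 1 libraries left out. For TNF-α in GSTM1 KD it was 1, and 3 with no filter, 0 with effective-length offsets, 2 with the newer method, 3 with only the 4 libraries compared and 2 with both control KD replicate 1 libraries left out. The difference of the responses gave 0 throughout. Apart from DESeq2, the share of all genes called under these settings is not given here. These counts therefore do not set the members against other genes. Leaving out each library in turn gave 0 to 4, 0 to 4, 0 to 1, 0 to 2 and 0 to 0 members in these 5 comparisons, while the genes called of all tested ranged from 1 to 5256, 0 to 5028, 180 to 313, 74 to 444 and 0 to 2. Where this left a group with 1 library, that library was assumed to vary like the others.

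With the replicate number as a block, 3 members were called unstimulated (C3, C4b and C1ra), 4 after TNF-α (these and Cd59a), 1 for TNF-α in control KD (C3) and 2 in GSTM1 KD (C3 and Cfb), while the genes called of all tested came to 4712, 4302, 988 and 808. The replicate differences of the groups correlated at 0.260 to 0.701 across genes, but the labels do not say what the number marks, and with 2 numbers the libraries were not treated as paired.

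Some log2 fold changes changed sign. With effective-length offsets C1s1 became 0.37 and C2 became -0.18 unstimulated, and the difference of C1s1 became -0.21. C2 became -0.00029 unstimulated with no filter and -0.014 with DESeq2, which gave it no adjusted p there. With both control KD replicate 1 libraries left out, C2 became -0.28 for TNF-α in control KD, and the differences became -0.56 for C3, 0.10 for C2 and 0.055 for Cd55. For TNF-α in GSTM1 KD, C4b became -0.0025 with DESeq2, -0.0035 with its size factors, -0.034 with library size only, -0.0066 with no filter and -0.0038 with at least 10 counts per library. Cd59a became -0.035, -0.0053 and -2.34e-06 with the last 3 of these.

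Leaving out each library in turn also turned signs. Unstimulated, C1s1 ranged from -0.14 to 0.067, C2 from -0.66 to 1.14 and Serping1 from -0.35 to 0.054. After TNF-α, C1s1 ranged from -0.13 to 0.22 and Serping1 from -0.69 to 0.0039. For TNF-α in control KD, C4b ranged from -0.49 to 1.25, C2 from -0.31 to 1.5 and Cd59a from -0.53 to 0.13. In GSTM1 KD, C4b ranged from -0.60 to 0.67, Serping1 from -0.33 to 0.38 and Cd59a from -0.13 to 0.16. The differences ranged from -0.41 to 1.04 for C3, -1.25 to 0.49 for C4b, -0.30 to 0.59 for C1ra, -0.075 to 0.26 for C1s1, -1.67 to 0.14 for C2, -0.55 to 0.15 for Serping1, -0.59 to 0.25 for Cd55 and -0.13 to 0.54 for Cd59a. Depth limited Cfb and C2 most, at 2 to 28 counts per library.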
